A study of Caenorhabditis elegans with 6 samples.

Results

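The ubiquitin-conjugating, cullin and Skp1-related genes of Caenorhabditis elegans were taken as every gene whose name in the deposited table begins with cul-, skr-, ubc-, uba- or ubq-, counted once per identifier. The rule found 53 of 46646 genes, made up of 3 uba genes, 21 ubc genes, 6 cullins, 21 skr genes and 2 ubq genes. Reads fell on 41 of the 53 in at least 1 library, and on 12 in none. Those without a read were cul-6, skr-4, skr-5, skr-6, skr-11, ubc-8, ubc-17, ubc-19, ubc-21, ubc-22, ubc-23 and ubc-24. RefSeq annotates skr-11 as a pseudogene and the other 52 as protein-coding.

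Ubiquitin is a small protein that is joined to other proteins to mark them, most often for destruction by the proteasome. An E1 enzyme activates it, an E2 enzyme carries it, and an E3 ligase chooses the target. Cullins are the scaffolds of a large class of E3 ligases, in which CUL-1 uses Skp1-related (SKR) proteins as adaptors to hold F-box substrate receptors, while other cullins use other adaptors. In the worm zygote and early blastomeres these ligases remove maternal proteins at the passage from oocyte to embryo and in somatic cells.

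RNA crosslinked to protein by ultraviolet light (UV) was recovered with an anti-GFP antibody from mixed early embryos in 3 groups of 2 libraries each (iCLIP). MEG-3::GFP embryos, strain JH3503, carried meg-3(ax3054[meg-3::meGFP]), and PGL-1::GFP embryos, strain JH3269, carried pgl-1(ax3122[pgl-1::GFP]). Both proteins, tagged at their own loci, are components of P granules, the RNA-rich germ granules of the worm, MEG-3 of the gel phase and PGL-1 of the liquid phase. The GFP control, strain JH1904, carried unc-119(ed3) and axIs1374[Ppie-1::GFP], so that GFP alone was made from the germline promoter of pie-1. Each group was a single strain, and all embryos came from young adults raised at 20 °C on NA22 bacteria and received 3 UV exposures of 400 mJ/cm2.

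Reads on genes totalled 225609 and 280007 in the first and the second MEG-3::GFP library (replicates 1 and 2), 21180 and 92593 in the PGL-1::GFP pair, and 26531 and 14040 in the GFP pair. All 12 maternal and early embryo transcripts checked had reads in 4 libraries, with 9 in PGL-1::GFP replicate 1 and 8 in GFP replicate 2, and their summed level was 14286 and 18157 CPM (reads per 1000000 reads on genes) with MEG-3::GFP, 19830 and 5432 CPM with PGL-1::GFP, and 20090 and 3276 CPM with GFP alone. Sperm markers and the intestine markers ges-1 and elt-2 had no reads, and the vitellogenin genes had 1 read in all, on vit-2. The neuron markers summed to 847 and 154 CPM with MEG-3::GFP, 0 and 356 CPM with PGL-1::GFP, and 792 and 427 CPM with GFP alone. Of these, snb-1 had 191 reads in MEG-3::GFP replicate 1 and 21 in GFP replicate 1, and unc-13 had 4 in GFP replicate 2. No read fell on rab-3. The cuticle markers summed to 641 CPM in GFP replicate 2, all on dpy-7 (9 reads), and to at most 21.6 CPM elsewhere. The 3 muscle markers summed to 1994 CPM in GFP replicate 2, nearly all on unc-54 (27 reads) with 1 read on myo-3 and 0 on unc-15, against at most 528 CPM in the other libraries. The part of these differences in the values that follow was not tested. The GFP libraries carry library names of a different series from the other 4, so that if the names mark a batch, batch and control cannot be told apart. No source used here says that the PGL-1::GFP or GFP pairs came from separate cultures, and p-values measure only the spread between these libraries.

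The 53 genes took a larger share of reads in both MEG-3::GFP libraries than in any other library. The share was 1.12% and 1.10% in the MEG-3::GFP pair, 0.836% and 0.724% in the PGL-1::GFP pair, and 0.663% and 0.363% in the GFP pair. The 95% Wilson intervals, which cover counting error only, ran from 1.08% to 1.17% and 1.07% to 1.14% in the MEG-3::GFP pair, from 0.722% to 0.968% and 0.671% to 0.780% in the PGL-1::GFP pair, and from 0.573% to 0.768% and 0.276% to 0.477% in the GFP pair. By the shares themselves the groups did not overlap in any of the 3 comparisons. The interval of GFP replicate 1 nonetheless overlapped those of both PGL-1::GFP libraries. Mean shares were 1.11% ± 0.0121 in the MEG-3::GFP pair, 0.780% ± 0.0793 in the PGL-1::GFP pair and 0.513% ± 0.212 in GFP (SD, n = 2 each), which gave ratios of 2.17 for MEG-3::GFP over GFP, 1.52 for PGL-1::GFP over GFP and 1.43 for MEG-3::GFP over PGL-1::GFP. Without GFP replicate 2, the library with the lowest maternal marker level, the ratios over GFP were 1.68 and 1.18. The two-sided exact permutation test gave p = 0.333 in each, the smallest value that 2 libraries against 2 allow, so this design could not reach the threshold of 0.05. More copies of a transcript in the embryos, more cells that hold it and more crosslinking per copy cannot be told apart in these bulk counts.

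**Figure D1:**
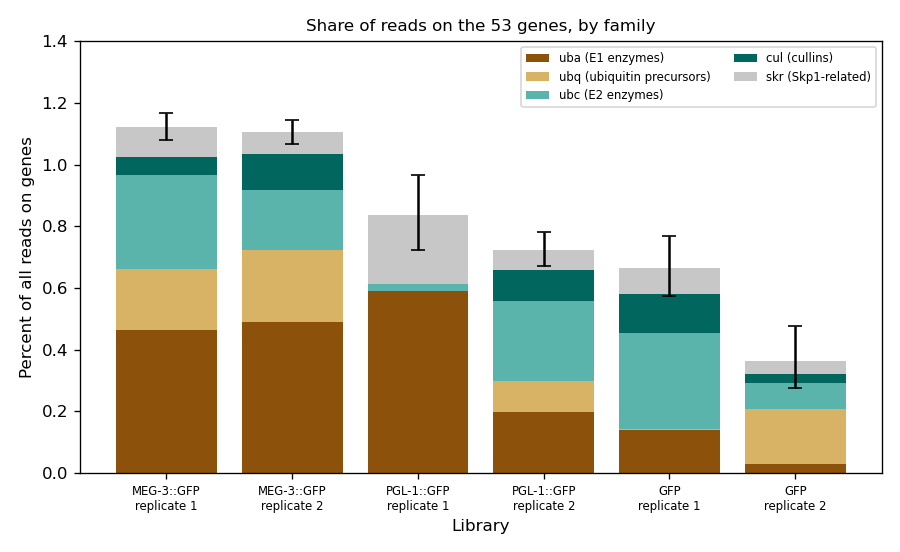
Percent of all reads on genes (vertical axis) that fell on the 53 genes in each of the 6 libraries, stacked by gene family, with the 95% Wilson interval of the total. The MEG-3::GFP bars stand at 1.12% and 1.10%, above the other 4, and the uba segment is the largest of its bar for MEG-3::GFP and for PGL-1::GFP replicate 1.

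A single gene carried much of that share. uba-1, which encodes the E1 enzyme that activates ubiquitin, held 39.5% and 43.3% of the reads of the 53 genes in the MEG-3::GFP pair, 70.6% and 23.7% in the PGL-1::GFP pair, and 17.6% and 7.84% in the GFP pair. Without uba-1 the remaining 52 genes took 0.679% and 0.626% of reads in the MEG-3::GFP pair, 0.246% and 0.552% in the PGL-1::GFP pair, and 0.547% and 0.335% in the GFP pair. By these shares MEG-3::GFP still lay above the other groups, whereas PGL-1::GFP and GFP then overlapped. The Wilson interval of MEG-3::GFP replicate 2 was 0.598% to 0.656%. It overlapped those of GFP replicate 1 (0.465% to 0.643%) and PGL-1::GFP replicate 2 (0.506% to 0.602%). With uba-1 and ubc-9, the leading genes of these groups, both left out, the ratio of PGL-1::GFP over GFP was 0.997. In a separate setting the 10 genes with the most reads in each library were left out. This takes uba-1 out of the MEG-3::GFP libraries but not the others. The MEG-3::GFP to PGL-1::GFP ratio was then 0.829, with both MEG-3::GFP libraries below both PGL-1::GFP libraries (exact permutation p = 0.333). The MEG-3::GFP to GFP ratio was 1.28, with overlapping groups (exact permutation p = 0.667).

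Detection followed the library more than the group. A read was found on 15 and 35 of the 41 genes in the pair of MEG-3::GFP libraries, on 5 and 35 in the PGL-1::GFP pair, and on 25 and 10 in the GFP pair. As percentages these were 36.6% and 85.4%, 12.2% and 85.4%, and 61% and 24.4%. Among the 9227 other genes with a read in any library, 33.8% and 69.6% were seen with MEG-3::GFP, 11.1% and 85.9% with PGL-1::GFP, and 44.9% and 21.7% in the GFP pair. The shares of the 41 genes were thus near the background in most libraries, and highest above it in MEG-3::GFP replicate 2 and GFP replicate 1, where the Wilson intervals of 71.6% to 93.1% and 45.7% to 74.3% lay just above it. Against other protein-coding genes alone, a background added after the data were seen, the shares were 74.5% and 48.5% in those libraries, inside both intervals.

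The difference between paired libraries remained at equal depth. At a common total of 14040 reads, 12.2 and 21.9 of the 41 genes would be detected in MEG-3::GFP, 4.61 and 24.4 in the PGL-1::GFP pair, and 20.0 and 10.0 in the GFP pair. Other genes followed the same order, with 2163 and 3450, 891 and 4485, and 3376 and 2003 expected. Of the 41 genes, 20 had reads in MEG-3::GFP replicate 2 and none in replicate 1, at a median of 18.5 and a maximum of 96 reads, and 0 showed the opposite. In PGL-1::GFP 30 had reads in replicate 2 only and 0 in replicate 1 only.

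**Figure D2:**
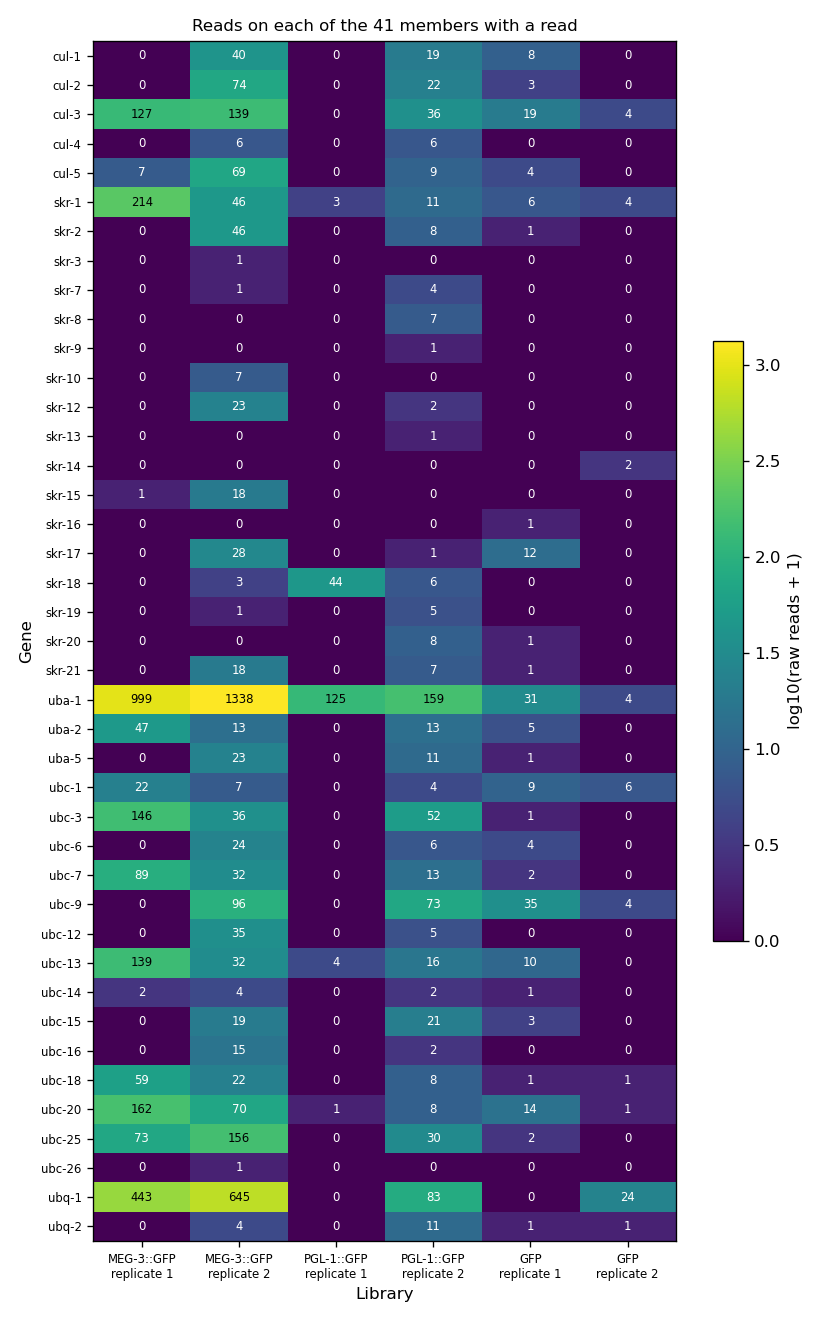
Raw reads on each of the 41 genes with a read (rows) in the 6 libraries (columns), printed in each cell and coloured by log10(reads + 1). uba-1 and ubq-1 are brightest in MEG-3::GFP, and the column of PGL-1::GFP replicate 1 holds reads on 5 genes.

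The study used 60 reads, a level set on the GFP control, as its background threshold. At 60 reads in both MEG-3::GFP libraries stood 5 of the 41 genes (12.2%, Wilson interval 5.32% to 25.5%), namely uba-1, ubc-20, ubc-25, cul-3 and ubq-1, against 7.07% of other genes. Only uba-1 reached 60 reads in both PGL-1::GFP libraries, where 0.184% of other genes did. None of the 41 did so in both GFP libraries, against 0.0434% of other genes. The MEG-3::GFP background lies inside the interval of the 41 genes, a share near the background. Single libraries held 9 and 8 genes at 60 reads in MEG-3::GFP (others 12.5% and 13.4%), 1 and 3 in PGL-1::GFP (others 1.37% and 2.09%), and 0 and 0 in GFP (others 0.444% and 0.0759%). The same 60 reads stand for 266 and 214 CPM in MEG-3::GFP, 2833 and 648 CPM in the PGL-1::GFP pair, and 2262 and 4274 CPM in the GFP pair, so that the threshold was a different level in each library. In either MEG-3::GFP library 12 genes reached it (others 18.9%), and in either PGL-1::GFP library 3 did (others 3.27%). Asking for 30 reads in both MEG-3::GFP libraries gave 9 genes (others 12.3%), and scaling reads to the median library total left 2 genes, uba-1 and ubq-1 (others 0.91%).

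Among the E1 enzymes, uba-1 was the most abundant of all 53 genes in both MEG-3::GFP and both PGL-1::GFP libraries. It lies on chromosome IV from 9989673 to 9994945 in the RefSeq annotation of WBcel235. Its reads numbered 999 and 1338 in the MEG-3::GFP pair, 125 and 159 in the PGL-1::GFP pair, and 31 and 4 in the GFP pair, and it ranked 9 and 5 among all genes in the MEG-3::GFP libraries. The levels were 4428 and 4778 CPM in the MEG-3::GFP pair, 5902 and 1717 CPM in the PGL-1::GFP pair, and 1168 and 285 CPM in the GFP pair. Both tagged groups lay wholly above GFP, and MEG-3::GFP fell inside the wide range of PGL-1::GFP. The edgeR log2 fold change of uba-1 was 2.99 (SE 1.79) in MEG-3::GFP over GFP, with an unadjusted p of 0.095 and an adjusted p of 0.999, and 2.14 (SE 1.73, adjusted p = 0.999) in PGL-1::GFP over GFP. Both comparisons share the GFP libraries.

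The remaining E1 genes serve ubiquitin-like proteins and were sparse. uba-2, a subunit of the E1 for SUMO, had 47 and 13 reads from the MEG-3::GFP pair, 0 and 13 in the PGL-1::GFP pair, and 5 and 0 in the GFP pair. uba-5, the E1 for UFM1, had 0 and 23, 0 and 11, and 1 and 0 reads in the same order. Neither separated the groups.

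Of the 21 E2 genes, 14 had a read, 8 had reads in each library of the MEG-3::GFP pair and 6 reached 60 reads in either of them. ubc-25 and ubc-20 reached 60 in both. ubc-25 had 73 and 156 reads from the MEG-3::GFP pair, 0 and 30 in the PGL-1::GFP pair, and 2 and 0 in the GFP pair. It was at 324 and 557 CPM in the MEG-3::GFP pair and at 75.4 and 0 CPM in the GFP pair, without overlap. ubc-20, which RefSeq places on chromosome III from 188838 to 190947, had 162 and 70 reads from the MEG-3::GFP pair, 1 and 8 in the PGL-1::GFP pair, and 14 and 1 in the GFP pair. Its MEG-3::GFP levels of 718 and 250 CPM lay above PGL-1::GFP at 47.2 and 86.4 CPM but overlapped GFP at 528 and 71.2 CPM.

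A further set of E2 genes was high in MEG-3::GFP replicate 1 and lower in replicate 2. ubc-3, the counterpart of the yeast and human Cdc34 enzyme that works with Cullin-based ligases, had 146 and 36 reads from the MEG-3::GFP pair, 0 and 52 in the PGL-1::GFP pair, and 1 and 0 in the GFP pair. ubc-13, which builds chains that do not mark proteins for the proteasome, together with an E2 variant, had 139 and 32, 4 and 16, and 10 and 0 reads. ubc-7 had 89 and 32, 0 and 13, and 2 and 0 reads. By CPM the libraries of the MEG-3::GFP pair differed 5.03-fold for ubc-3, 5.39-fold for ubc-13 and 3.45-fold for ubc-7. ubc-3 and ubc-7 were nonetheless above both GFP libraries in each MEG-3::GFP library.

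ubc-9, the E2 for SUMO, had a different distribution. It had 0 and 96 reads from the MEG-3::GFP pair, 0 and 73 in the PGL-1::GFP pair, and 35 and 4 in the GFP pair, and was the leading gene of the 53 in GFP replicate 1. Its level there, 1319 CPM, was above its 343 CPM in MEG-3::GFP replicate 2 and its 788 CPM in PGL-1::GFP replicate 2. ubc-1, the counterpart of yeast Rad6 and chosen after its values were seen, had 22 and 7 reads from the MEG-3::GFP pair, 0 and 4 in the PGL-1::GFP pair, and 9 and 6 in the GFP pair. Its level was at most 97.5 CPM with MEG-3::GFP and 43.2 CPM with PGL-1::GFP, below the 339 and 427 CPM of the control, on few reads.

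Of the cullins, cul-3 alone was past the threshold in the MEG-3::GFP pair. CUL-3 works with BTB-domain adaptors and, with MEL-26, removes the meiotic katanin MEI-1 before the mitotic divisions. The gene, on chromosome V from 177579 to 185100, had 127 and 139 reads from the MEG-3::GFP pair, 0 and 36 in the PGL-1::GFP pair, and 19 and 4 in the GFP pair. As levels these were 563 and 496 CPM in the MEG-3::GFP pair, 0 and 389 CPM in the PGL-1::GFP pair, and 716 and 285 CPM in the GFP pair, so that MEG-3::GFP lay between the GFP libraries. The direction of its MEG-3::GFP over GFP fold change, 0.41 on the log2 scale with TMM scaling, turned to −0.10 with library size alone.

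The other cullins were detected mainly in replicate 2 of each tagged protein. cul-2, the scaffold used with ZIF-1 and ZYG-11, had 0 and 74 reads from the MEG-3::GFP pair, 0 and 22 in the PGL-1::GFP pair, and 3 and 0 in the GFP pair. cul-5, which pairs with SOCS-box receptors, had 7 and 69, 0 and 9, and 4 and 0 reads, a 7.94-fold difference by CPM within the MEG-3::GFP pair. cul-1, the SCF scaffold, had 0 and 40, 0 and 19, and 8 and 0 reads. None of these 3 separated MEG-3::GFP from GFP. cul-4, which limits replication licensing, had 6 reads in replicate 2 of each tagged protein and 0 in the other libraries, and cul-6 had none anywhere.

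Apart from skr-1, no Skp1-related gene had more than 46 reads in a library. Of 21, 17 had a read, 2 had reads in each library of the MEG-3::GFP pair and 1, skr-1, reached 60 reads in any library. skr-1 and skr-2, the SKR proteins with the best known role in SCF ligases, lie 912 bases apart on chromosome I. skr-1 had 214 and 46 reads from the MEG-3::GFP pair, 3 and 11 in the PGL-1::GFP pair, and 6 and 4 in the GFP pair. skr-2 had 0 and 46, 0 and 8, and 1 and 0 reads. The neighbours therefore had equal counts in MEG-3::GFP replicate 2 and opposite extremes in replicate 1. Their sequences are closely related, and how reads that fit several genes were counted is not given in the sources used here, so the split between them is uncertain, as it is for the other skr genes that lie in clusters on chromosomes IV, V and X.

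skr-18, chosen after its values were seen, was the SKR gene with the most reads in the PGL-1::GFP pair. It had 0 and 3 reads from the MEG-3::GFP pair, 44 and 6 in the PGL-1::GFP pair, and 0 and 0 in the GFP pair. The 2 PGL-1::GFP libraries, at 2077 and 64.8 CPM, were both above the 0 and 10.7 CPM of MEG-3::GFP and differed 32.1-fold from each other.

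The ubiquitin precursor gene ubq-1, which encodes a chain of ubiquitin repeats, was the next gene after uba-1 in the MEG-3::GFP pair. It lies on chromosome III from 5940986 to 5943827. It had 443 and 645 reads from the MEG-3::GFP pair, 0 and 83 in the PGL-1::GFP pair, and 0 and 24 in the GFP pair. As levels these were 1964 and 2304 CPM in the MEG-3::GFP pair, 0 and 896 CPM in the PGL-1::GFP pair, and 0 and 1709 CPM in the GFP pair. MEG-3::GFP lay above every other library, and the nearest was GFP replicate 2, where ubq-1 led the 53 genes. ubq-2, which encodes ubiquitin fused to a ribosomal protein, had 0 and 4, 0 and 11, and 1 and 1 reads. Because the repeats share sequence with each other and with ubq-2, both counts are uncertain.

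**Figure D3:**
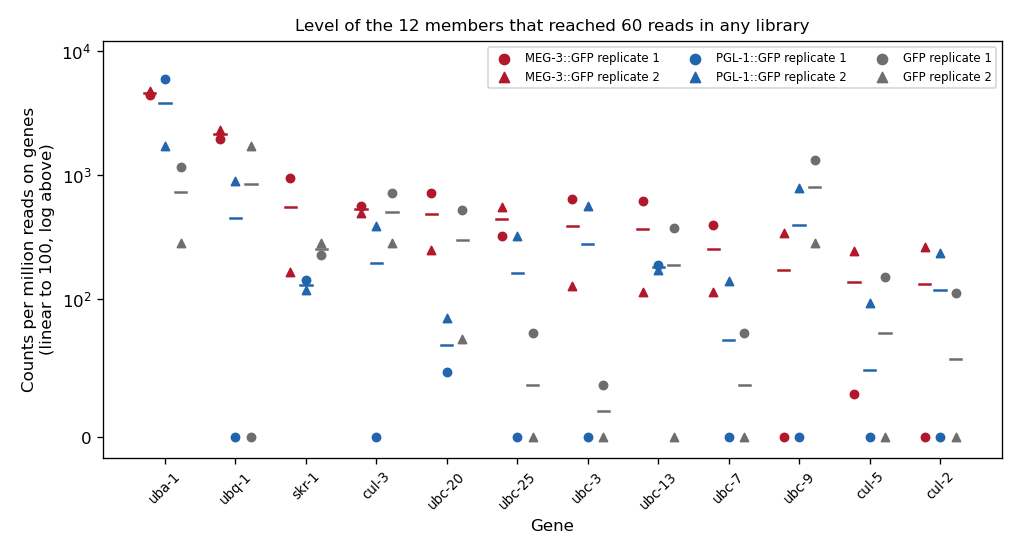
CPM (vertical axis, linear to 100 and logarithmic above) of the 12 genes with 60 reads in any library, with circles for replicate 1, triangles for replicate 2 and a bar for the group mean. The MEG-3::GFP points lie above both GFP points for uba-1, ubq-1, ubc-25, ubc-3 and ubc-7, and the pair of MEG-3::GFP points lies close together for uba-1, ubq-1 and cul-3.

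Within the MEG-3::GFP pair, uba-1, cul-3 and ubq-1 were closest among the genes with 60 reads. By CPM the replicates differed 1.08-fold for uba-1, 1.17-fold for ubq-1, 1.13-fold for cul-3, 1.72-fold for ubc-25 and 2.87-fold for ubc-20. For skr-1 the difference was 5.77-fold. cul-2 and ubc-9, 2 of the 12 genes with 60 reads in either library (16.7%), had 0 in the other, as did 10.4% of the 1742 other genes at that level. Divided by the gene span, introns included, mean MEG-3::GFP levels were 873 CPM per kb for uba-1, 751 for ubq-1, 508 for skr-1, 238 for ubc-7, 229 for ubc-20, 228 for ubc-25 and 70.4 for cul-3. On this scale the long cul-3 gene fell below ubc-7, ubc-20 and ubc-25, though not below every E2 gene. Other E2 genes above cul-3 were ubc-18 (192), ubc-3 (140), ubc-9 (122), ubc-13 (118) and ubc-12 (85.1). The levels per kb of ubc-7, ubc-20 and ubc-25 were close to each other. Before division by length their means were 254, 484 and 440 CPM, with SDs of 198, 331 and 165 CPM (n = 2 each).

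**Figure D4:**
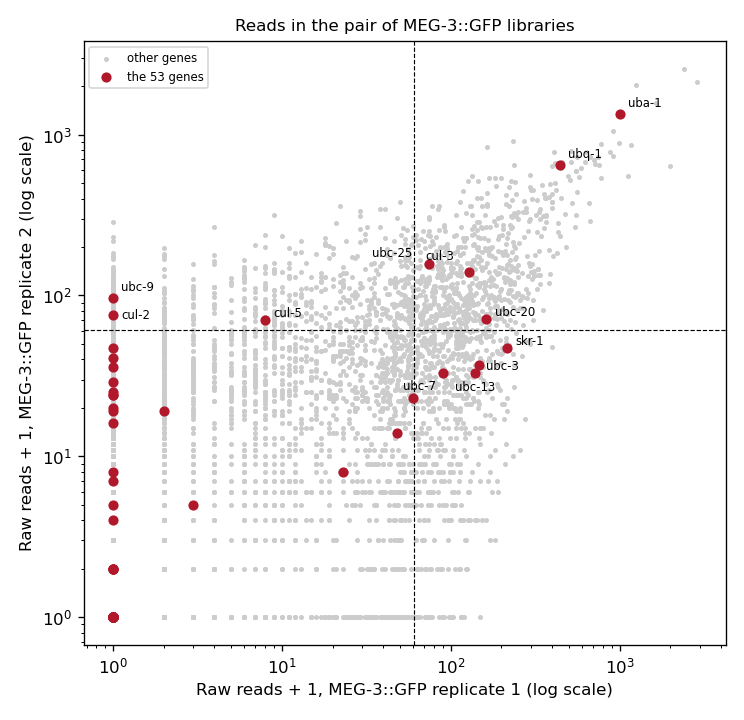
Raw reads + 1 of each gene in MEG-3::GFP replicate 1 (horizontal, log scale) against replicate 2 (vertical, log scale), with the 53 genes in red, other genes with a read in grey and dashed lines at 60 reads. The column of red points at the left edge is the genes with 0 reads in replicate 1, and 5 red points lie past both lines.

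Counts of genes whose groups did not overlap by CPM were near the background in each comparison. Higher in both MEG-3::GFP libraries than in both GFP libraries were 7 of the 38 genes with a read in these 4 (skr-15, uba-1, ubc-3, ubc-7, ubc-18, ubc-25 and ubq-1), against 15.4% of other genes, and 2, ubc-1 and ubq-2, were lower, against 5.95%. For PGL-1::GFP and GFP, 2 of 37 were higher (uba-1 and skr-18, others 2.83%) and 2 were lower (skr-1 and ubc-1, others 4.93%). Between the tagged proteins, 5 of 39 were higher in MEG-3::GFP (cul-3, skr-1, skr-15, ubc-20 and ubq-1, others 10.5%) and 1 was lower (skr-18, others 2%). skr-15, also chosen after its values were seen, with 1 and 18 reads in the MEG-3::GFP pair and 0 elsewhere, shows how few reads some of these separations rest on.

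No gene of the 53 passed the edgeR test in any comparison. The filter on low counts kept 13 of them among 2033 genes, and it keeps a gene with enough reads in any 2 libraries, so that genes high in MEG-3::GFP alone could pass. At an adjusted p under 0.05 edgeR called 0 of 2033 genes (0%) in each comparison, and DESeq2 called 3, 1 and 0 genes, none of them among the 53. At an unadjusted p under 0.05 edgeR gave 3.1% of genes in MEG-3::GFP over GFP, 0.787% in PGL-1::GFP over GFP and 1.28% between the tagged proteins, and 0 of the 13. By direction, 17 of 63 such genes were higher in MEG-3::GFP than in GFP, and 10 of 16 were higher in PGL-1::GFP than in GFP. Between the tagged proteins, 0 of 26 were higher in MEG-3::GFP. In MEG-3::GFP over GFP, 10 of the 13 had a positive log2 fold change and 3 a negative one, with a median of 1.18 beside 0.73 over all 2033 genes. The corresponding medians were −0.27 beside −0.05 for PGL-1::GFP over GFP (4 positive, 9 negative) and 1.32 beside 0.88 for MEG-3::GFP over PGL-1::GFP (11 positive, 2 negative). With library size alone the all-gene median of MEG-3::GFP over GFP was 0.25 and that of the 13 was 0.76, with 9 positive. The filter dropped skr-18, so it is not among the 13. With DESeq2, skr-18 alone of the 53 had an unadjusted p under 0.05 in PGL-1::GFP over GFP and between the tagged proteins. Of 9268 genes, 147 and 176 did so in these comparisons.

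**Figure D5:**
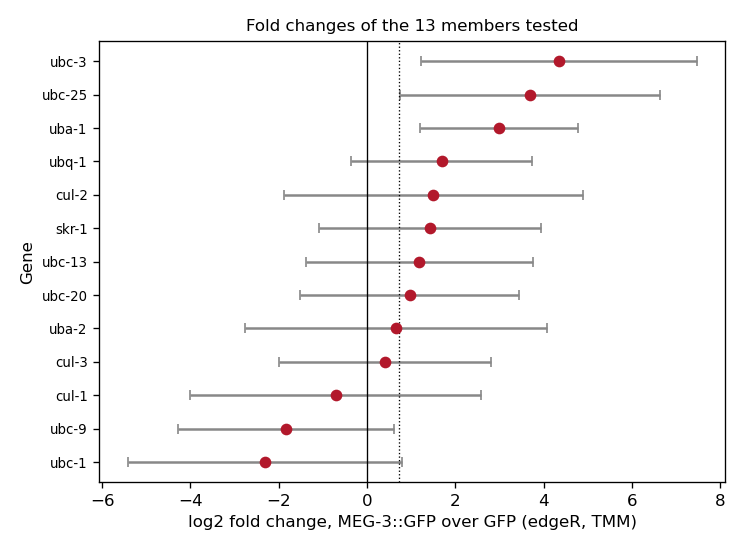
edgeR log2 fold change between MEG-3::GFP and GFP, positive where MEG-3::GFP is higher (horizontal axis), for the 13 tested genes (vertical axis), with bars of 1 SE, a solid line at 0 and a dotted line at the median of all tested genes, 0.73. Fold changes run from −2.32 for ubc-1 to 4.35 for ubc-3, and none passed the test.

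The widths of these estimates were large throughout. ubc-3 had the highest log2 fold change against the control, 4.35 (SE 3.12), followed by ubc-25 at 3.69 (SE 2.94). ubq-1 stood at 1.69 (SE 2.05). The edgeR common dispersion over the 2033 tested genes was 1.93. Fold changes of ubc-3 and ubc-25 rest on 1 and 2 reads in the pair of GFP libraries.

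Transcripts of the proteins that work with the cullins were recovered in the same libraries. Of 30 cullin-RING partners, all had a read, 8 reached 60 reads in both MEG-3::GFP libraries, against 7.07% of all genes outside the 53 with a read, and 0 did so for PGL-1::GFP or GFP, against 0.184% and 0.0434%. By level the list did not separate MEG-3::GFP from GFP, since its sum was 9122 and 8593 CPM with MEG-3::GFP, 5146 and 4946 CPM with PGL-1::GFP, and 9159 and 2778 CPM with GFP alone. zer-1 (334 and 330 reads in MEG-3::GFP) and zyg-11 (168 and 534 reads) encode CUL-2 substrate receptors, as does zif-1 (150 and 150 reads), which directs the loss of germline proteins from somatic cells. The F-box genes sel-10, skpt-1 and prom-1 had 147 and 112, 225 and 117, and 86 and 162 reads. dcn-1, which promotes attachment of NEDD8 to cullins, had 173 and 122 reads, and cand-1, which exchanges SCF receptors, had 65 and 185. In GFP replicates 1 and 2, zyg-11 had 50 and 2 reads and zif-1 had 49 and 2, the most of these 8 genes. By CPM, 3 of the 8 were higher in GFP replicate 1 than in either MEG-3::GFP library, namely zif-1 (1847 against 665 and 536), sel-10 (1282 against 652 and 400) and prom-1 (716 against 381 and 579).

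E2 and ubiquitin-like genes outside the name rule were also counted. Of 17, 16 had a read and 3 reached 60 reads in both MEG-3::GFP libraries, against 7.07% of all genes outside the 53 with a read. Summed, the list was at 4122 and 3368 CPM with MEG-3::GFP and 567 and 2711 CPM with PGL-1::GFP. With GFP alone it was at 3468 and 2066 CPM, which overlapped MEG-3::GFP. let-70, an abundant E2 enzyme of the UbcH5 kind, had 72 and 150 reads from the MEG-3::GFP pair, 0 and 64 in the PGL-1::GFP pair, and 30 and 3 in the GFP pair. Its level in GFP replicate 1, 1131 CPM, was above its 319 and 536 CPM with MEG-3::GFP. The SUMO ligase gene gei-17 had 222 and 139, 0 and 35, and 5 and 4 reads, and the SUMO protease gene ulp-4 had 525 and 375, 10 and 50, and 26 and 0 reads.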

How the data were processed

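Counts were used as the authors deposited them, as raw counts per gene. The authors trimmed adaptors and random barcodes, mapped them with HISAT2 to genome release ws235 (version 2.1.0 in the submitters' processing notes), removed PCR duplicates and counted with HTSeq. Counting options and annotation are not given in the sources used here. Columns left unused numbered 0. Identifiers on several rows, 438 in all, uba-5 among them, were used once. All 53 genes matched RefSeq (WBcel235), as did 46429 of 46646 genes.

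Library totals are sums over genes, from 14040 to 280007 reads, and depth sets the precision of each count. Shares carry 95% Wilson intervals. Tests were edgeR 4.0.16 (quasi-likelihood, TMM, default filter, all 6 libraries in 1 fit, Benjamini-Hochberg adjustment over 2033 genes) in R 4.3.3, with DESeq2 1.42.0 as an alternative, and SciPy 1.17.1 for exact permutation. The SE of a fold change is its absolute log2 value over the square root of the F statistic. edgeR was tested on simulated data.

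Named genes were those with 60 reads in any library, all cul, uba and ubq genes, skr-2, the leading gene of each group, up to 5 with the largest difference between paired libraries, and listed pathway genes with 60 reads in both MEG-3::GFP libraries. Genes named for groups that did not overlap, genes without a read and the marker genes fall outside this rule. The genes and lists were chosen with earlier results of these data known. Alternatives varied the threshold, denominator, scaling, filter, tool and libraries.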

Additional observations from a re-analysis of the deposited data

How the results depend on the processing

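Depth, from 14040 to 280007 reads, limits the GFP and PGL-1::GFP values most. Across alternatives, the read share ratios kept their direction except that PGL-1::GFP over GFP was 0.997 without uba-1 and ubc-9, and the ratio of MEG-3::GFP to PGL-1::GFP was 0.829 without the 10 genes with the most reads in each library. In the latter setting MEG-3::GFP over GFP fell from 2.17 to 1.28. Leaving out a library gave ratios from 1.68 to 3.06, from 1.18 to 2.15 and from 1.33 to 1.54 in the 3 comparisons, highest for MEG-3::GFP over GFP without GFP replicate 1. The count of genes at 60 reads in both MEG-3::GFP libraries, 5, became 12 in either library, 9 at 30 reads and 2 after scaling, and 1 in PGL-1::GFP became 3 in either library. The 0 calls of edgeR became 3 in MEG-3::GFP over GFP and 1 in PGL-1::GFP over GFP with DESeq2, and 2 in MEG-3::GFP over GFP when only those groups were fitted, none of them among the 53 genes. Leaving out a library gave 0 calls throughout, the lone library of a group being assumed to vary like the others. The cause of these changes was not tested.

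Log2 fold changes changed sign for several genes. For MEG-3::GFP over GFP, cul-3 (0.41) was −0.10 with library size alone and −0.18 with DESeq2, and ran from −0.27 (without GFP replicate 2) to 1.66 when a library was left out, while ubc-20 (0.97) ran from −0.00042 (without GFP replicate 2) to 3.41. For MEG-3::GFP over PGL-1::GFP, uba-1 (0.84) was −0.11 with DESeq2 and between −0.060 (PGL-1::GFP replicate 2 left out) and 1.30 without a library. For PGL-1::GFP over GFP, the leave-out ranges were −8.75 to 0.23 for cul-3, −2.87 to 0.39 for ubc-20, −5.23 to 7.45 for ubc-25 and −9.35 to 9.02 for ubq-1, each turned by leaving out a PGL-1::GFP or GFP library and, for ubq-1, also MEG-3::GFP replicate 2 (0.09). No paired analysis was possible because the labels give no replicate number that pairs libraries of different groups.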

Other observations

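Lists of further ubiquitin-system genes were described in the same libraries. Of 14 genes of the anaphase-promoting complex, the E3 ligase that drives exit from mitosis, all had a read and 2 reached 60 reads in both MEG-3::GFP libraries, where 7.07% of the 9227 genes outside the 53 did. Summed, the list was at 1667 and 1668 CPM with MEG-3::GFP, 850 and 1588 CPM with PGL-1::GFP, and 1395 and 1425 CPM with GFP alone. The subunit gene emb-30 had 78 and 109 reads there, 0 and 8 in the PGL-1::GFP pair, and 0 and 0 in the GFP pair. The activator gene fzr-1 had 176 and 199 reads from the MEG-3::GFP pair, 1 and 39 in the PGL-1::GFP pair, and 16 and 5 in the GFP pair. As levels these were 780 and 711 CPM, 47.2 and 421 CPM, and 603 and 356 CPM in the same order.

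Of 19 deubiquitinase and segregase genes, 18 had a read and 3 reached 60 reads in both MEG-3::GFP libraries, beside the same 7.07% of other genes. cdc-48.1, which encodes an ATPase that extracts ubiquitinated proteins, had 707 and 692 reads from the MEG-3::GFP pair, 10 and 86 in the PGL-1::GFP pair, and 29 and 3 in the GFP pair, and its paralog cdc-48.2 had 226 and 151, 1 and 43, and 2 and 2. The deubiquitinase gene cyld-1 had 77 and 218 reads from the MEG-3::GFP pair and 89 and 16 in the PGL-1::GFP pair. In the GFP pair it had 8 and 6 reads. Its highest level, 4202 CPM, was in PGL-1::GFP replicate 1. With MEG-3::GFP it was at 341 and 779 CPM, which overlapped the 302 and 427 CPM of the GFP pair. Of 16 other E3 ligases found in the table, all had a read and 1, hrdl-1, had 60 reads in both MEG-3::GFP libraries (123 and 227), again beside 7.07%. Summed, this list was at 2735 and 4793 CPM with MEG-3::GFP, 11520 and 4774 CPM with PGL-1::GFP, and 8443 and 5413 CPM with GFP alone. Both MEG-3::GFP sums lay below both GFP sums. hrdl-1 had 37 and 11 reads in the GFP pair. Its levels there, 1395 and 783 CPM, overlapped its 545 and 811 CPM with MEG-3::GFP.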
